A study of Mus musculus with 9 samples.

Results

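The genes described here encode the contractile proteins of fast-twitch muscle fibres: the myosin heavy chains Myh1 and Myh4, the myosin light chains Mylpf and Myl1, the troponin subunits Tnnt3, Tnni2 and Tnnc2, the Z-disc protein Actn3, and the thick filament proteins Mybpc2 and Mybph. They were taken by gene symbol from a fixed list of 10 genes. Of these, 9 had at least 1 probe set on the array, 13 probe sets in all, among 12422 probe sets that are not controls. Mybpc2 was skipped, as no probe set was annotated to it. All 13 probe sets passed the filter on dim probe sets, which kept 7453 of the 12422.

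RNA was measured in gastrocnemius, a calf muscle made mostly of fast fibres in the mouse, with 1 Affymetrix U74Av2 array for each of 9 mice in 6 genotypes. Wild-type mice (n = 2, both 7 weeks old) were a female, wild-type 1, and a male, wild-type 2, of mixed C57Bl/DBA2/129OLA-Ev stock; all the other mice were male. The hDMD genotype (n = 1, 11 weeks) carried the full-length human dystrophin gene beside the mouse one. The mdx genotype (n = 2; mdx 1 at 15 weeks, mdx 2 at 13 weeks) lacked mouse dystrophin, and hDMD x mdx (n = 2; hDMD x mdx 1 at 24 weeks, hDMD x mdx 2 at 10 weeks) combined that mutation with the human gene. The mdx x utrn-/- genotype (n = 1, 5 weeks) lacked utrophin, a close relative of dystrophin, as well, and hDMD x mdx x utrn-/- (n = 1, 9 weeks) carried the human gene on that doubly deficient background. Age differed between the genotypes: both mdx mice were older than both wild-type mice, and the mdx x utrn-/- mouse was the youngest, while the ages of mice with and without dystrophin overlapped.

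In a sarcomere, myosin heavy chain pulls on actin, and each fast fibre type is known by the heavy chain it makes: Myh1 encodes the chain of type IIX fibres and Myh4 that of type IIB fibres. The troponin complex holds the thin filament switched off until calcium binds troponin C, and fast fibres use their own forms of troponin C, I and T (Tnnc2, Tnni2 and Tnnt3). Dystrophin links the inner cytoskeleton of the fibre to its membrane, and fibres that lack it are damaged by contraction and regenerate.

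Both myosin heavy chain genes lie in 1 cluster on mouse chromosome 11, in the order Myh3, Myh2, Myh1, Myh4, Myh8 and Myh13. The 250 bases just before the annotated start of Myh1, Myh4 and Mybph are shown because the first pair are neighbours that set the fast fibre type, while Mybph was the member that varied most between mice. Sequences are from RefSeq (GRCm38.p6), on the coding strand, 5′ to 3′, and 7 of the 10 listed genes had an entry.
Myh1, chr11:67199852-67200101, plus strand: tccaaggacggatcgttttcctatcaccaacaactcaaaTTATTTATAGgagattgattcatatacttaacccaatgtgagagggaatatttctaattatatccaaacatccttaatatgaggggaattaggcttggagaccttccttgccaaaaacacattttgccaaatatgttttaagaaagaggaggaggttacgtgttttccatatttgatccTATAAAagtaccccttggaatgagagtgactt
Myh4, chr11:67237562-67237811, plus strand: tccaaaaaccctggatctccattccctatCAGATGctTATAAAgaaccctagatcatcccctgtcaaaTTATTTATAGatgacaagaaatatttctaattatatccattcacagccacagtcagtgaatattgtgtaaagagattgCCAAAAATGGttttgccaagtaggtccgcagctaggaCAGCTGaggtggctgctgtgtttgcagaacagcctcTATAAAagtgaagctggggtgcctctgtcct
Mybph, chr1:134193198-134193447, plus strand: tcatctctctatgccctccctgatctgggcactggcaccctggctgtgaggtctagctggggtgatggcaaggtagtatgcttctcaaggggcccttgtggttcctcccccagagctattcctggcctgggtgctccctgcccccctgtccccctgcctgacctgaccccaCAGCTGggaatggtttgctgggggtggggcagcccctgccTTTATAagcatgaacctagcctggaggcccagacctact
Capitals mark matches, on either strand, to 4 motifs: the TATA box TATAAA, the E-box CANNTG that MyoD family factors bind, and the MEF2 and CArG motifs. Over 32851 promoters of the same length, these were found in 12.4%, 66.2%, 2.92% and 1.47%. Myh1 and Myh4 each held the MEF2 match TTATTTATAG, which begins at position -211 of Myh1 and -182 of Myh4 counted from the start, and which overlaps a TATA match on the other strand. Each also had a TATA match near the start, at -32 and -31. Myh4 alone of the 3 held a CArG match, at -104, and had E-boxes at -221 and -67. Mybph had an E-box at -79 and a TATA match, on the other strand, at -39, but no MEF2 match. The arrays carry no measurement of factor binding, so these matches are a description of sequence.

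The 9 arrays differed in overall brightness. By 9 hybridisation spike-in probe sets, 3 arrays (wild-type 1, mdx 2 and hDMD x mdx 1) were bright and the other 6 dim, with a ratio of 6.18 between the medians of both classes. The deposited array medians ran from 1.47 to 45.6, and 19.4% to 29.9% of values were at or below 0. Signal ratios of 3′ over 5′ probe sets, which rise when RNA is degraded, were 1.2 to 1.87 for beta-actin on the bright arrays and 0.669 to 0.908 on the dim ones. For Gapdh they were 1.18 to 1.53 and 0.951 to 1.12. Wild-type, mdx and hDMD x mdx each had 1 bright and 1 dim array, so differences are also given within each class. Bulk RNA cannot tell fewer fibres of a type from less RNA per fibre. With 1 or 2 mice a genotype, p-values reflect the spread between these individual mice and their arrays, where mates also differ in brightness. limma further draws the spread of each probe set toward that of all probe sets, so a standard error can exceed a member's own SD.

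The members were among the brightest probe sets of the muscle. Ranked by deposited intensity, 7 of the 13 stood in the top 100 on all 9 arrays: Mylpf set 1, Myl1, Tnnt3, Tnnc2 set 1, both Actn3 sets and Myh4 set 1. Myh4 set 1 ranked 4 to 11 and Myl1 3 to 12. Myh1 was in the top 100 on 8 arrays. At the other end, Tnnc2 set 2 and Myh4 set 2 were never in the top 1000 and lay near or at the floor of the scale.

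This brightness was checked for saturation by setting the bright array of a genotype against its dim mate. If the arrays differed by a single factor, a bright array would raise every probe set by about that factor. Signal is called compressed here where the brightest probe sets rose by less than dimmer ones, whatever the cause. Spike-in medians of the bright and the dim mate were 225 and 35.1 in wild-type, 223 and 34.6 in mdx, and 206 and 37 in hDMD x mdx. In wild-type the median bright over dim ratio of deposited intensity was 6.08 for probe sets ranked 301 to 1000, but 4.08 for ranks 26 to 100 and 2.57 for ranks 1 to 25. In mdx the same medians were 5.96, 3.33 and 2.1, and in hDMD x mdx 18.5, 8.24 and 3.54. The brightest 25 probe sets therefore rose least in each of the 3 genotypes.

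The brighter members mostly had the smaller ratios, though the order was not strict. Myl1, which encodes the alkali light chains of fast myosin, was at 3849 on wild-type 1 and 2167 on wild-type 2, a ratio of 1.78. Its ratio was 1.55 in mdx and 2.73 in hDMD x mdx. Myh4 set 1 had ratios of 1.89, 1.73 and 3.23, while the less bright Tnni2 had 5.32, 3.23 and 7.02. Mylpf set 2, dimmer again, had 14, 5.84 and 16.8. Mybph was an exception, at 15.4, 4.11 and 1.52, the last below that of Myl1. Actn3 set 2 was another, at 2.25, 1.93 and 2.88, below the brighter Actn3 set 1 at 2.58, 2.27 and 3.33. No shared ceiling was seen: the highest value differed between arrays, from 2200 to 8058, and was held by 1 probe set on each. The brightest members were thus measured on a compressed part of the scale; the cause of the compression was not tested.

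**Figure D1:**
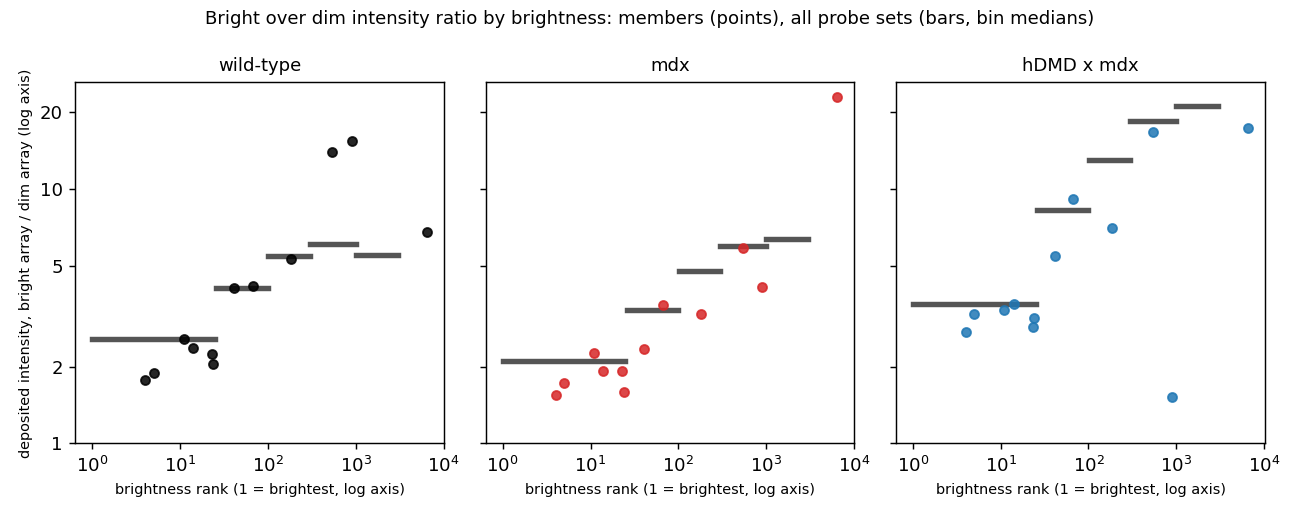
Ratio of deposited intensity between the bright and the dim array of wild-type, mdx and hDMD x mdx (vertical, log axis) against mean brightness rank (horizontal, log axis, 1 is brightest); points are member probe sets with a value above 0 on both arrays, and bars the medians of all probe sets in 5 rank ranges. The ratio is lowest for ranks 1 to 25, at 2.57, 2.1 and 3.54, where 6 of the 13 members lie.

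Levels below are on the log2(intensity + 16) scale after quantile normalisation, which gives each array the same set of values, so that floor values read 4. A very bright probe set then moves only by changing places with others, in small steps that many arrays share. Over the 9 arrays the range of a member probe set had a median of 1.05, against 1.25 over all 7453 probe sets. The narrowest were Tnnt3 at 0.41, Myh4 set 1 at 0.42 and Myl1 at 0.44, and the widest was Mybph at 3.62. In 9 of 13 member probe sets (69.2%) the largest gap between mates of 1 genotype was above the range of the 6 genotype means. The share was 40.7% over all probe sets, which were not matched to the members in brightness. Mates were always 1 bright and 1 dim array, so the gap holds array brightness as well as the mouse.

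**Figure D2:**
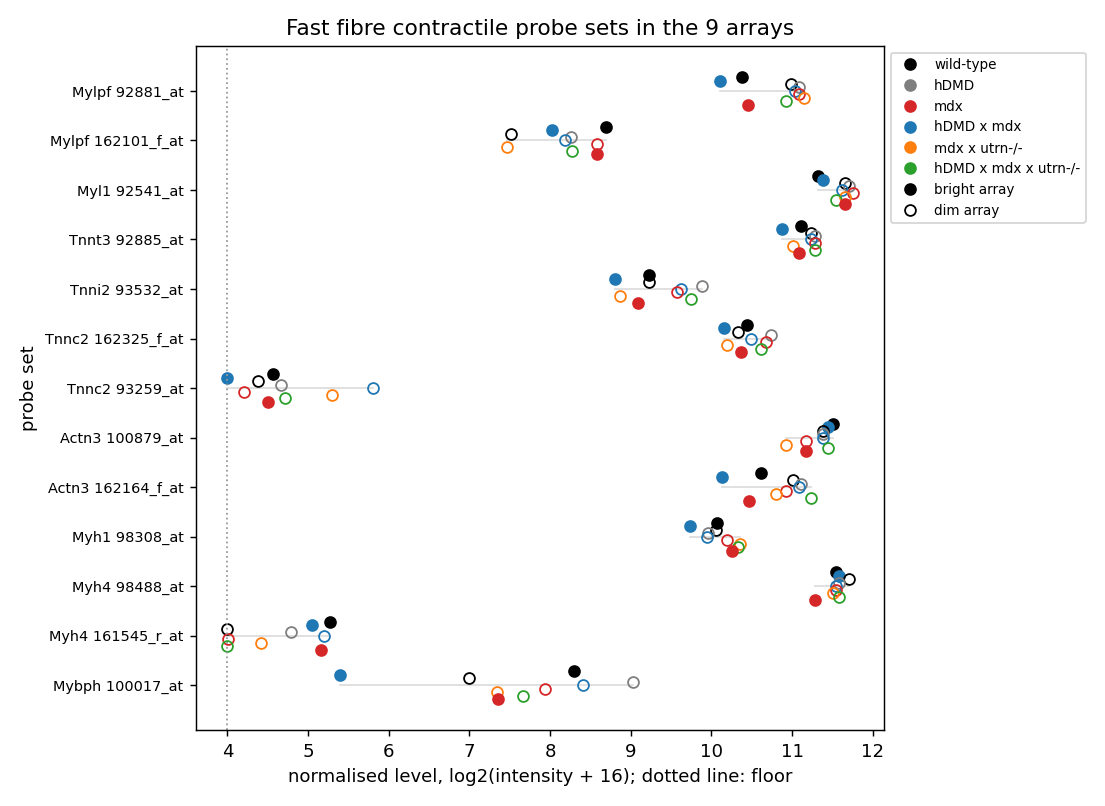
Level of each of the 13 probe sets (rows) on each of the 9 arrays (points, coloured by genotype, filled for bright arrays and open for dim ones), in log2(intensity + 16) after quantile normalisation; grey lines span lowest to highest and the dotted line is the floor. Tnnt3, Myl1 and Myh4 set 1 span under 0.5, Mybph spans 3.62, and Tnnc2 set 2 and Myh4 set 2 lie near the floor.

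Myh4 (Entrez 17884) encodes the IIB heavy chain, the main myosin of mouse gastrocnemius. Myh4 set 1 (98488_at) was at 11.54 and 11.70 in wild-type 1 and 2, 11.58 in hDMD, 11.54 and 11.28 in mdx 1 and 2, 11.58 and 11.54 in hDMD x mdx 1 and 2, 11.51 in mdx x utrn-/- and 11.58 in hDMD x mdx x utrn-/-. All arrays but mdx 2 and wild-type 2 thus lay within 0.1 of each other. Between mdx and wild-type the difference was -0.21 ± 0.32 (SE; 95% interval -0.97 to 0.55). Myh4 set 2 (161545_r_at, a suffix for probes chosen by relaxed rules) ran from the floor to 5.27 and gives little on this gene.

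Myh1 (Entrez 17879) encodes the IIX heavy chain, and its single probe set 98308_at gave a more graded picture. It was at 10.07 and 10.06 in wild-type 1 and 2, 9.96 in hDMD, 10.19 and 10.26 in mdx 1 and 2, 9.73 and 9.94 in hDMD x mdx 1 and 2, 10.35 in mdx x utrn-/- and 10.33 in hDMD x mdx x utrn-/-. Both mdx arrays lay above both wild-type and both hDMD x mdx arrays, and the mice without utrophin were highest. The share of all probe sets with arrays apart in this way was not counted. Its genotype means had a range of 0.52, above the largest gap between mates of 0.21. Most probe sets were like this, as the gap was the larger of both in 40.7% of all. The intervals of its differences included 0: mdx minus wild-type was 0.16 ± 0.32 (SE; 95% interval -0.59 to 0.91), and hDMD x mdx minus mdx was -0.39 ± 0.32 (-1.13 to 0.36), or -0.53 between the bright and -0.24 between the dim arrays of the pair.

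Mylpf (Entrez 17907), the fast regulatory light chain, had 2 probe sets that did not move together. Mylpf set 1 (92881_at) was at 10.38 and 10.98 in wild-type 1 and 2, 11.08 in hDMD, 11.08 and 10.45 in mdx 1 and 2, 10.10 and 11.04 in hDMD x mdx 1 and 2, 11.15 in mdx x utrn-/- and 10.92 in hDMD x mdx x utrn-/-. The 3 bright arrays were the 3 lowest. Mylpf set 2 (162101_f_at, a suffix for probes shared within a sequence family) was at 8.69 and 7.52, 8.26, 8.58 and 8.58, 8.02 and 8.18, 7.46 and 8.27 in the same order. On it, wild-type 1 was highest and mdx x utrn-/-, the highest array by the other set, was lowest.

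Myl1 (Entrez 17901; 92541_at), whose bright over dim ratios are given above, ran from 11.32 on wild-type 1 to 11.75 on mdx 1. Genotype means ran from 11.49 ± 0.24 (SD, n = 2) in wild-type to 11.71 ± 0.06 (n = 2) in mdx. Their order could not be told apart from the gap of 0.35 between the wild-type mates.

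The troponin genes were alike in the order of several arrays. Tnni2 (Entrez 21953; 93532_at), the inhibitory subunit, was at 9.23 and 9.22 in wild-type 1 and 2, 9.88 in hDMD, 9.57 and 9.09 in mdx 1 and 2, 8.80 and 9.62 in hDMD x mdx 1 and 2, 8.87 in mdx x utrn-/- and 9.75 in hDMD x mdx x utrn-/-. Tnnc2 set 1 (162325_f_at; Entrez 21925), the calcium-binding subunit, was at 10.44 and 10.33, 10.74, 10.68 and 10.37, 10.15 and 10.49, 10.19 and 10.61 in that order. On both, hDMD was highest, hDMD x mdx 1 lowest and mdx x utrn-/- next to it.

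Tnnt3 (Entrez 21957; 92885_at), the subunit that binds tropomyosin, was at 11.11 and 11.23, 11.28, 11.28 and 11.08, 10.87 and 11.23, 11.01 and 11.28 in the same order of arrays. Here too hDMD x mdx 1 and mdx x utrn-/- were the lowest pair, though the whole range was small. Tnnc2 set 2 (93259_at) lay between the floor and 5.80, was highest in hDMD x mdx 2 and did not follow set 1.

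Actn3 (Entrez 11474), the alpha-actinin that anchors actin at the Z-disc of fast fibres, also had 2 probe sets. Actn3 set 1 (100879_at) was at 11.51 and 11.38 in wild-type 1 and 2, 11.38 in hDMD, 11.17 in both mdx mice, 11.44 and 11.38 in hDMD x mdx 1 and 2, 10.92 in mdx x utrn-/- and 11.44 in hDMD x mdx x utrn-/-. All 3 arrays of mice without dystrophin were below all 6 others. Actn3 set 2 (162164_f_at) was at 10.62 and 11.01, 11.11, 10.93 and 10.46, 10.13 and 11.08, 10.80 and 11.23, where the 3 bright arrays were again the lowest and the classes overlapped.

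Mybph (Entrez 53311; 100017_at) encodes myosin-binding protein H, which sits on the thick filament. It was at 8.29 and 6.99 in wild-type 1 and 2, 9.03 in hDMD, 7.94 and 7.36 in mdx 1 and 2, 5.40 and 8.41 in hDMD x mdx 1 and 2, 7.34 in mdx x utrn-/- and 7.66 in hDMD x mdx x utrn-/-. The gap of 3.0 between the hDMD x mdx mates was wider than the range of 2.12 between genotype means. As deposited, hDMD x mdx 1 had 115 where its dim mate had 76.0, a ratio of 1.52 on an array that was otherwise many times brighter.

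The question of the design, whether loss of dystrophin or its replacement changes muscle RNA, was put to these genes in 7 comparisons fitted with limma over all 7453 probe sets. No member was called at an adjusted p of 0.05 in any of them, and none had an unadjusted p under that value. Across the 6 genotypes the smallest unadjusted p of a member was 0.521 in limma's F test, and 0% of all probe sets were called (0 of 7453, with 217 at an unadjusted p under 0.05). A wide interval goes with these values: the median standard error of a member was 0.27 for the comparison of dystrophin classes and 0.34 to 0.40 for those between single genotypes or backgrounds.

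Mice without any full-length dystrophin (mdx and mdx x utrn-/-, n = 3) were compared with those that had the mouse or the human protein by genotype (n = 6). Of the 13 member probe sets 4 were higher and 9 lower without dystrophin, with a median difference of -0.05 against -0.01 over all probe sets; among bright arrays alone it was 0.09, and among dim ones -0.11. limma called 0.121% of all probe sets (9 of 7453) and 0 members.

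Actn3 set 1 came nearest: it was at 11.09 ± 0.14 (SD, n = 3) without and 11.42 ± 0.05 (n = 6) with dystrophin, a difference of -0.33 ± 0.18 (SE; 95% interval -0.74 to 0.07; limma adjusted p 0.985). Its standard error depended on the spread that limma shares over probe sets, and was 0.07 without the filter on dim probe sets (limma adjusted p 0.292). Among bright arrays the difference was -0.30 and among dim arrays -0.35. Actn3 set 1 was the only one of 13 member probe sets (7.69%) with all arrays lower without dystrophin, against 1.42% of all probe sets. No member had all arrays higher, and the share of all probe sets that did was not counted. In brightness rank the 3 arrays were at 13, 14 and 21, and the others at 8 or 9. Actn3 set 2 differed by -0.13 ± 0.27, or 0.09 among bright and -0.24 among dim arrays, so the 2 probe sets of the gene did not give the same picture.

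**Figure D3:**
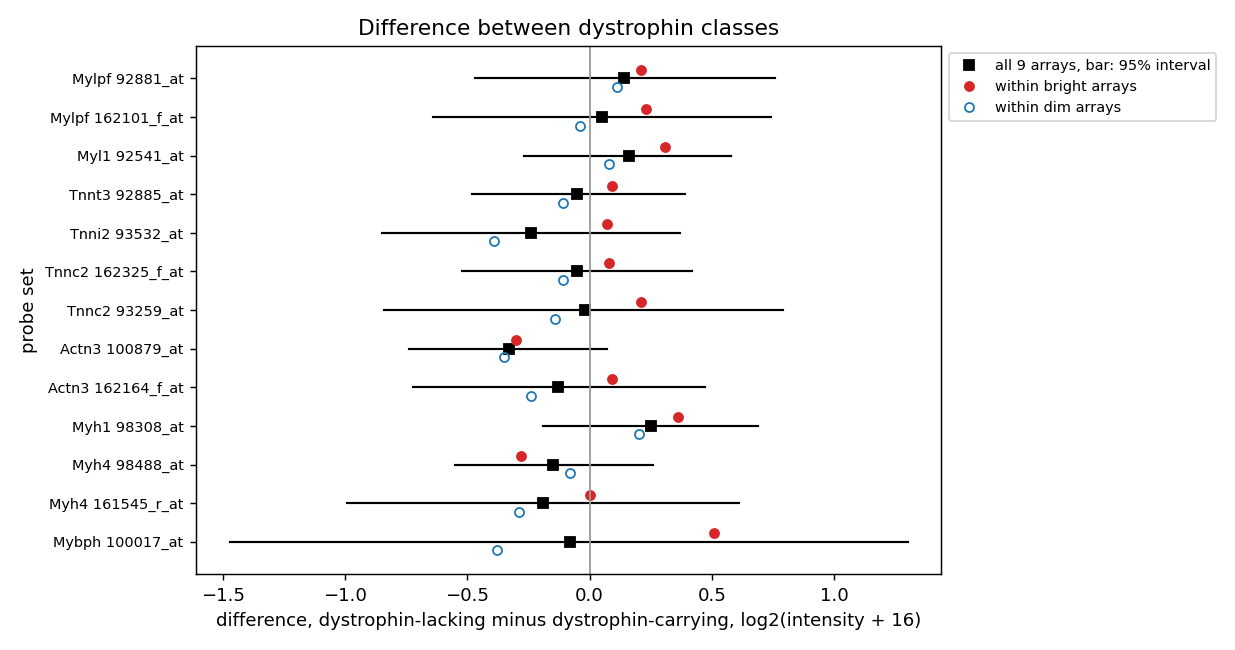
Difference between dystrophin-lacking (n = 3) and dystrophin-carrying (n = 6) arrays for each of the 13 probe sets (horizontal, log2(intensity + 16)), with its 95% interval from limma (squares and bars), and the same difference among bright (filled circles) and among dim arrays (open circles). Every interval includes 0, and Actn3 set 1 lies lowest at -0.33.

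Between mdx and wild-type (n = 2 each) the members had a median difference of 0.01 against 0.00 over all probe sets, and 0% of all were called (130 of 7453 at an unadjusted p under 0.05). Mylpf set 2 differed most, by 0.47 ± 0.44 (SE), but it was -0.11 between the bright and 1.06 between the dim arrays. Mybph, at 0.01 ± 0.94, split into -0.93 and 0.95. For both, the bright pair and the dim pair of arrays gave opposite directions.

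Between hDMD x mdx and mdx (n = 2 each) 9 of 13 member probe sets had lower values with the human gene, with a median of -0.13 against 0.02, and 0% of all probe sets were called (213 at an unadjusted p under 0.05). The median was -0.29 within the bright arrays, where hDMD x mdx 1 stood, and 0.00 within the dim ones. Without hDMD x mdx 1 it was 0.21. Between hDMD x mdx and wild-type it was -0.06, with -0.29 and 0.07 in the classes, 0.13 without hDMD x mdx 1, and again 0% called (62 at an unadjusted p under 0.05). Both comparisons share the hDMD x mdx arrays.

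Over both deficient backgrounds, carriers of the human gene (n = 3) minus non-carriers (n = 3) gave a member median of 0.01 (all probe sets 0.02), which was -0.29 among bright and 0.21 among dim arrays. Actn3 set 1 differed by 0.33 ± 0.26 (SE) and Mybph by -0.39 ± 0.72. Mice without utrophin (n = 2) minus the utrophin-carrying mice on the mdx background (n = 4) gave 0.04 (all probe sets -0.02), or -0.10 within the dim arrays. In this comparison Myh1 differed by 0.31 ± 0.28 and Mylpf set 2 by -0.47 ± 0.36. In each of these comparisons 0% of probe sets were called, with 407 and 441 of 7453 at an unadjusted p under 0.05. With array brightness as a block, limma called 4 of 7453 probe sets for the human gene and 0 for utrophin, none of them a member.

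A pair of arrays stood low in many members at once. The mdx x utrn-/- mouse, the youngest, was the lowest of the 6 dim arrays in 7 of 13 member probe sets (53.8%): Mylpf set 2, Tnnt3, Tnni2, Tnnc2 set 1, both Actn3 sets and Myh4 set 1. Over all probe sets it was the lowest dim array in 19.6%. Yet this mouse had the highest values of the 9 in Myh1 and Mylpf set 1. The hDMD x mdx 1 mouse, the oldest and on the array with the highest median, was the lowest of all 9 in 8 of 13 (61.5%), against 7.42% of all probe sets. Those were Mylpf set 1, all 3 troponin genes with both Tnnc2 sets, Actn3 set 2, Myh1 and Mybph. Each is 1 mouse, so genotype, age and array cannot be told apart in either.

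Within genotype, bright arrays were set against their dim mates in the same units. The mates are different mice, of other sex in wild-type and of other age in mdx and hDMD x mdx, so brightness cannot be told apart from the mouse. Of the 13 member probe sets 10 were lower on bright arrays, with a median of -0.23 against 0.02. None was called, while limma called 6.98% of all probe sets as higher and 6.10% as lower on bright arrays. These calls over all probe sets fell to 0 without the filter, with a pseudocount of 1 or with age as a covariate. At an unadjusted p under 0.05 there were 2 members: Mylpf set 1 at -0.72 ± 0.20 (SE, limma adjusted p 0.0621) and Actn3 set 2 at -0.60 ± 0.21 (adjusted p 0.107). The other probe sets of these genes were at 0.33 ± 0.30 for Mylpf set 2 and 0.06 ± 0.19 for Actn3 set 1. With each array scaled by its trimmed mean instead, which keeps the compression of bright signals, 7 members were called, all lower on bright arrays, and the median was -1.25.

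Slow fibre contractile genes, the counterparts made by type I fibres, had a wider spread of values between arrays. The brightest fast probe sets had compressed signals and move only in small steps on this scale. Their spread therefore does not show how steady those genes were, and whether it was narrowed by this was not tested. The median deviation of the 7 that passed the filter, of 10 listed, from their mean over the arrays ran from -1.54 on wild-type 2 and -1.33 on mdx 1 to 1.18 on wild-type 1, while that of the 13 fast probe sets stayed between -0.29 and 0.13. Myh7 (Entrez 140781), the slow myosin heavy chain, ran from 5.33 on mdx 1 to 9.75 on wild-type 1, and Myl2 (Entrez 17906), the slow regulatory light chain, from 5.60 to 9.46 on the same arrays. Of the 7 slow genes 5 were called higher on bright arrays within genotype, with a median of 1.94; limma gave Myh7 2.76 ± 0.50 (SE, adjusted p 0.0254). Some markers of other cells were also called higher on bright arrays, as were 6.98% of all probe sets. These were 2 of 2 nerve and Schwann cell markers (median 1.16) and 2 of 5 endothelium markers (median 0.34). Of the endothelium markers 2 had lower values. Among 2 skin markers 1, Lor, was called lower at -1.63, as were 6.10% of all probe sets. All calls in this comparison fell to 0 without the filter or with a pseudocount of 1. Blood and macrophage markers had medians of -1.05 and -0.97, with 0 called. The part of these cells in the slow genes' values was not tested. Between the dystrophin classes none was called and the median was -0.15.

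**Figure D4:**
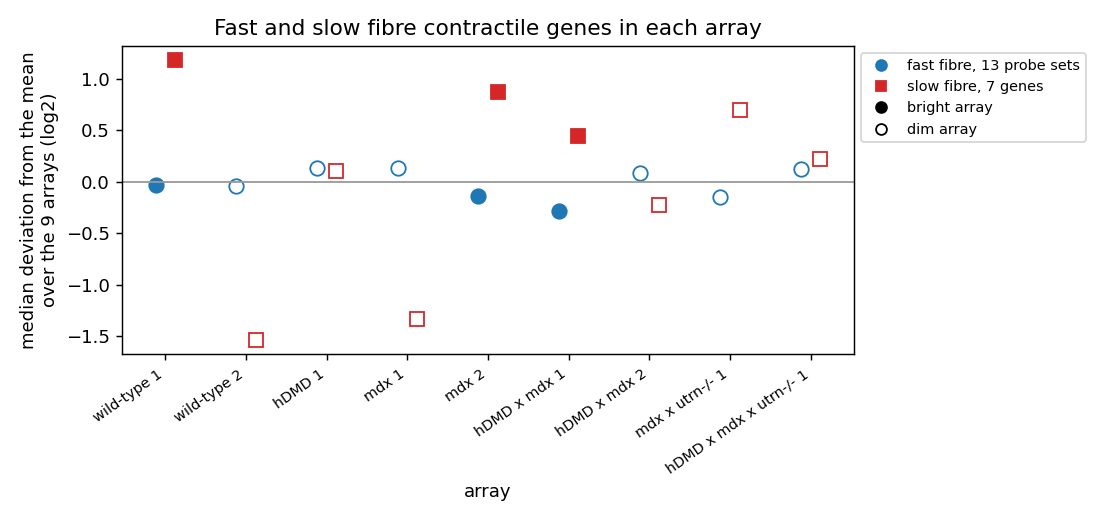
Median deviation from the mean over the 9 arrays, in log2 units, of the 13 fast fibre probe sets (circles) and of 7 slow fibre genes (squares) on each array, filled for bright and open for dim arrays. The fast genes stay between -0.29 and 0.13, while the slow genes run from -1.54 on wild-type 2 to 1.18 on wild-type 1.

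Other contractile genes were called in the same comparison. Of 8 developmental and cardiac contractile genes 2 were called higher without dystrophin, and their median was 0.67. These calls depend on the processing: over all probe sets 9 were called, but 0 as deposited and 1 with a pseudocount of 1. Myl4 (Entrez 17896), an embryonic light chain, was at 8.66 and 8.26 in mdx 1 and 2, 8.04 in mdx x utrn-/- and 5.38 to 6.34 in the rest, a difference of 2.44 ± 0.26 (SE; limma adjusted p 0.00336). Myh3 (Entrez 17883), the embryonic heavy chain of the same cluster on chromosome 11, was at 6.81, 5.72 and 7.16 in those mice and between the floor and 4.58 in the rest, a difference of 2.24 ± 0.30 (limma adjusted p 0.0204). The lower values lie close to the floor, so this difference depends on the floor and is no exact fold. Myh8 (Entrez 17885), the perinatal chain next to Myh4, differed by 1.03 ± 0.31 (adjusted p 0.606).

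Of 18 measured genes of fast fibre calcium handling and energy 0 were called, but 17 had lower values without dystrophin, with a median of -0.20. Their score was -0.37 in mdx x utrn-/- and between -0.02 and 0.14 on the other 8 arrays. Atp2a1 (Entrez 11937), the fast calcium pump, differed by -0.02 ± 0.18, and Pvalb (Entrez 19293), parvalbumin, by -0.07 ± 0.19. Ckm (Entrez 12715), muscle creatine kinase, differed by -0.41 ± 0.24. Of 16 sarcomere genes shared by fibre types 0 were called, with a median of -0.03, and Acta1 (Entrez 11459), skeletal actin, differed by 0.05 ± 0.18. Tpm1 (Entrez 22003) and Tpm2 (Entrez 22004), tropomyosins, differed by 0.07 ± 0.30 and -0.10 ± 0.23. None was called among 7 genes of slow fibre calcium handling and oxygen (median -0.12) or 16 fibre type regulators (median -0.17).

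Markers of other cells are given beside these values, since the mice in which Actn3 set 1 was low also had high values of some. All 8 macrophage markers kept by the filter had higher values without dystrophin (median 1.31, 0 called), and their summed level was 921 to 1670 in those 3 mice, 1200 in wild-type 2 and 216 to 326 in the other 5. All 6 fibroblast markers had higher values too (median 0.49, 0 called), with sums of 2790 to 3230 against 1680 to 4610, the top being wild-type 2. Summed adipocyte markers were 6370 in wild-type 2 and 2090 to 4080 elsewhere. These sums hold only markers that passed the filter, so a gene at the floor on every array could not enter them. Muscle fibre markers summed to 7570 to 9470 on all arrays, the lowest in mdx x utrn-/-. That sum holds very bright probe sets such as Acta1, at 11.70 to 11.86, which move only in small steps. It therefore does not show a steady fibre content. The part of these cells in the members' values was not tested.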

How the data were processed

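Gastrocnemius RNA of 9 mice was hybridised to 9 Affymetrix U74Av2 arrays; per the labels' protocols it was extracted with Trizol and RNeasy and copied into biotin-labelled cRNA. The deposited values are linear intensities per probe set from the series' value table; the measure, its software and any scale factor were not stated in the protocols. The intensities were quantile normalised across arrays, values below 0 set to 0, a pseudocount of 16 added and log2 taken (floor 4). Of 12488 probe sets, 66 controls were left out, and those with a mean above the 40th percentile were kept. Of the other 12422, 10833 had 1 gene symbol in the platform annotation, 396 several and 1193 none listed. Tests used limma 3.58.1 in R 4.3.3 (lmFit, contrasts.fit, eBayes), two-sided. Benjamini-Hochberg adjustment was over 7453 probe sets, with a threshold of 0.05. The fits of the dystrophin classes and of mdx against wild-type were also run on simulated data with independent noise. Those data had no brightness classes or compressed signal, so they do not test for the effects of either. In the fits with 1 mean per genotype, genotypes of 1 mouse took their spread from those of 2. The dystrophin classes were fitted with 1 mean per class, so differences between genotypes within a class count as spread there. The human gene and utrophin were fitted together as additive terms. Where a gene had several probe sets, the other lists used the one with the highest mean level. Every member probe set is named, as are fixed companion genes; Mylk2, one of these, had no probe set. Members and lists were chosen with earlier results of these data known. Precision is limited by the number of arrays.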

Additional observations from a re-analysis of the deposited data

Results flagged for a closer look

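Among 26 groups of 4 or 6 member values, 3 held a value far from the others. A chance rate of about 1 in 20 does not apply here, as groups share arrays and mix bright with dim ones. All 3 concern Myh4, the IIB heavy chain. In Myh4 set 1, wild-type 2 at 11.70 stood above the other dystrophin-carrying arrays, which lay between 11.54 and 11.58. By deposited intensity the probe set ranked 4 on wild-type 2 and 5 to 7 on those others, so the gap is a small step in rank. Also in Myh4 set 1, mdx 2 at 11.28 was below the other utrophin-carrying arrays on the mdx background (11.54 to 11.58). In Myh4 set 2, near the floor, mdx 1 at 4.01 was below the others of that group (5.05 to 5.20). Its deposited value was below 0, at -0.40.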

How the results depend on the processing

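In the 7 genotype comparisons no alternative called a member. The members' median difference moved by more than 0.19, its SD between mates, as follows. As deposited it was 0.25 for hDMD x mdx against mdx, 0.40 against wild-type and -1.34 for utrophin, where all probe sets shifted by 0.51, 0.53 and -1.20. Trimmed mean scaling gave 0.21 for the human gene and 0.86 for utrophin. Dim arrays alone gave 0.21 for the human gene and, with trimmed mean scaling (chosen after seeing the data), 0.44, and -0.31 for the dystrophin classes. Age as a covariate gave 0.32 for mdx and 0.17 for hDMD x mdx against wild-type, and -0.15 for utrophin. Leaving out 1 mouse gave -0.37 to 0.21 for hDMD x mdx against mdx (without hDMD x mdx 2 and 1), -0.30 to 0.13 against wild-type (likewise) and -0.17 to 0.23 for utrophin (without hDMD x mdx x utrn-/- and mdx x utrn-/-). The difference of Actn3 set 1 between the dystrophin classes kept its sign in every alternative. Planned ones gave -0.25 (without mdx x utrn-/-) to -0.54 (as deposited), with limma adjusted p from 0.292 (no filter) to 1. Among those chosen after seeing the data, dim arrays with trimmed mean scaling gave -0.80. A brightness block with a trended prior gave a limma adjusted p of 0.173.

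For the members, bright against dim arrays depended most on scaling. Over all probe sets, the 975 called in this comparison fell to 0 without the filter, with a pseudocount of 1 or with age as a covariate. They were 957 with trimmed mean scaling, 925 with a pseudocount of 64 and 1038 with a trended prior. As deposited, 11 members were called and the median was 1.62 (all probe sets 1.86). This shift of all probe sets turned the sign of Mylpf set 1 (1.11), Tnnt3 (1.33), Tnni2 (2.23), Tnnc2 set 1 (1.88), Actn3 set 2 (1.21), Myh1 (2.31), Myh4 set 1 (1.13) and Mybph (1.90). Trimmed mean scaling called 7 with a median of -1.25, and turned Actn3 set 1 to -1.73. A pseudocount of 64 called 1, Mylpf set 1, and a trended prior 2, with Actn3 set 2. With brightness as a block no member was called in the genotype comparisons; over all probe sets 4 were called for the human gene (14 with a trended prior, chosen after seeing the data) and 11 for the dystrophin classes, whose median stayed at -0.05. For the dystrophin classes, the 9 probe sets called in the main fit became 0 as deposited, 1 with a pseudocount of 1 and 2 without the filter. Trimmed mean scaling and a trended prior each called 9. Compressed signal limits the brightest members, and 1 or 2 mice a genotype limit all.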
